A study of Mus musculus with 18 samples.

Results

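The 10 genes described here encode transcription factors of the FoxO family (Foxo1, Foxo3, Foxo4), muscle ubiquitin ligases of the atrophy programme (Fbxo32, Trim63) and proteins of autophagy and the lysosome (Bnip3, Gabarapl1, Map1lc3b, Sqstm1, Ctsl). They were taken as the rows of the count table whose mouse Ensembl identifier maps to these symbols, 10 of 50689 rows, and all 10 were found and passed the count filter of every model. RNA was measured in satellite cells (muscle stem cells) taken from tibialis anterior of C57BL6 mice and kept in culture on matrigel in growth medium. The control libraries (n = 9) have the genotype Hoxa10f/f, in which Hoxa10 is flanked by sites for Cre. The scKO libraries (n = 9) have the genotype Pax7-CreERT2/+;Hoxa10f/f, in which a tamoxifen-inducible Cre is driven by Pax7, and per the labels received 1 µM 4-hydroxytamoxifen for 2 days. For controls no such treatment is given, so loss of Hoxa10, the Cre allele and the drug cannot be told apart, and any cell in which Pax7 was silent at treatment would keep Hoxa10. Age, sex and the number of animals are not stated, and whether replicates are separate animals or cultures is not stated either, so p-values measure only the spread between libraries.

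FoxO proteins are kept out of the nucleus when insulin or IGF1 activates the kinase Akt, and enter it when that signal falls. In muscle fibres they raise Fbxo32 (atrogin-1) and Trim63 (MuRF1), which mark muscle proteins for the proteasome, and genes of autophagy, in which a membrane coated with Atg8-family proteins encloses cargo and fuses with the lysosome. In satellite cells FoxO factors are known for maintaining quiescence. FoxO activity is set largely by phosphorylation and location, which RNA levels do not measure.

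Totals fell into 5 deep libraries over 2000000 counts (4346150 to 5986128; control 1 and 2, scKO 6, 7 and 9) and 13 shallow ones (420197 to 968559; 7 controls and 6 scKO). Counts of unique molecular identifiers (UMIs) ended at the same highest value in all 5 deep libraries, a ceiling that compresses abundant genes there. Levels below are CPM, counts scaled to the TMM-adjusted library total. Hoxa10 held 11 to 36 counts in shallow controls against 1 to 3 in shallow scKO, and 209 and 328 in deep controls against 75, 56 and 48 in deep scKO. All 7 satellite cell and myoblast markers were above 0 in every library. Of the leukocyte markers Ptprc was at 0 in 14, Adgre1 in 16 and Cd68 in 6 libraries; Lum of the fibro-adipogenic list was at 0 in 8 and Kdr of the endothelial list in 7. Other markers of non-muscle cells, among them Pdgfra, Ly6a, Cdh5, Rgs5, Notch3 and Sox10, were above 0 in every library. Among shallow libraries, the second principal component of all genes set scKO 1 and controls 7, 8 and 9 apart from the remaining 9, and results that rest on them are given with and without them. Shares called over all genes, against which the members are read, were 0.679% of 7662 genes in the model of all 18 libraries with the depth class, 0.0434% of 6906 genes in shallow libraries and 14.3% of 13136 genes in deep libraries (edgeR adjusted p under 0.05).

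In deep libraries 2 of the 10 genes were higher in scKO, Trim63 and Bnip3, where 7.31% of all tested genes were called higher. In shallow libraries and in the model of all libraries 0 of the 10 genes were called by edgeR, by DESeq2 or by limma-voom; 2 (Map1lc3b and Ctsl) had an unadjusted edgeR p under 0.05 in each, against 6.15% and 11.9% of all genes. In shallow libraries that count of 2 was 1 without control 6, 7, 8 or 9 or scKO 2, 3, 4, 5 or 8, 1 without the 4 libraries and 0 with the replicate block. In the model of all libraries it was 0 without control 7, 8 or 9 or scKO 2 or 8, 0 without the 4 libraries, and 1 without control 2 or 5 or scKO 3, 5 or 6. In deep libraries 3 of the 10 were under 0.05 unadjusted (Foxo1 as well), against 29.4% of all genes. The median log2 fold change of the 10 genes was 0.02 over all libraries, -0.06 in shallow and -0.01 in deep ones, beside -0.01, -0.02 and -0.00 for all tested genes. Values for each gene follow by role.

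Per length of exon, the order of the 10 genes in shallow controls ran from Sqstm1 at 208.6 ± 30.2 CPM per kilobase (SD, n = 7) through Bnip3 at 105.5 ± 71.0, Foxo1 at 60.9 ± 3.34, Foxo4 at 47.2 ± 9.05, Gabarapl1 at 23.8 ± 7.51, Map1lc3b at 22.4 ± 6.65, Ctsl at 9.70 ± 2.56, Trim63 at 9.55 ± 1.95 and Foxo3 at 8.60 ± 2.22 to Fbxo32 at 4.23 ± 1.37. Bnip3 and Foxo1, Gabarapl1 and Map1lc3b, and Ctsl, Trim63 and Foxo3 were closer to their neighbours than 1 SD. In shallow controls the cargo receptor of autophagy was thus the most abundant of these transcripts and the muscle ligases were among the scarcest. The kit is not given, so whether division by exon length suits these counts is not known. By mean CPM alone Foxo1 (527.9) lay above Bnip3 (239.0), and Gabarapl1 (47.9) below Foxo3 (65.1) and Ctsl (62.9).

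**Figure D1:**
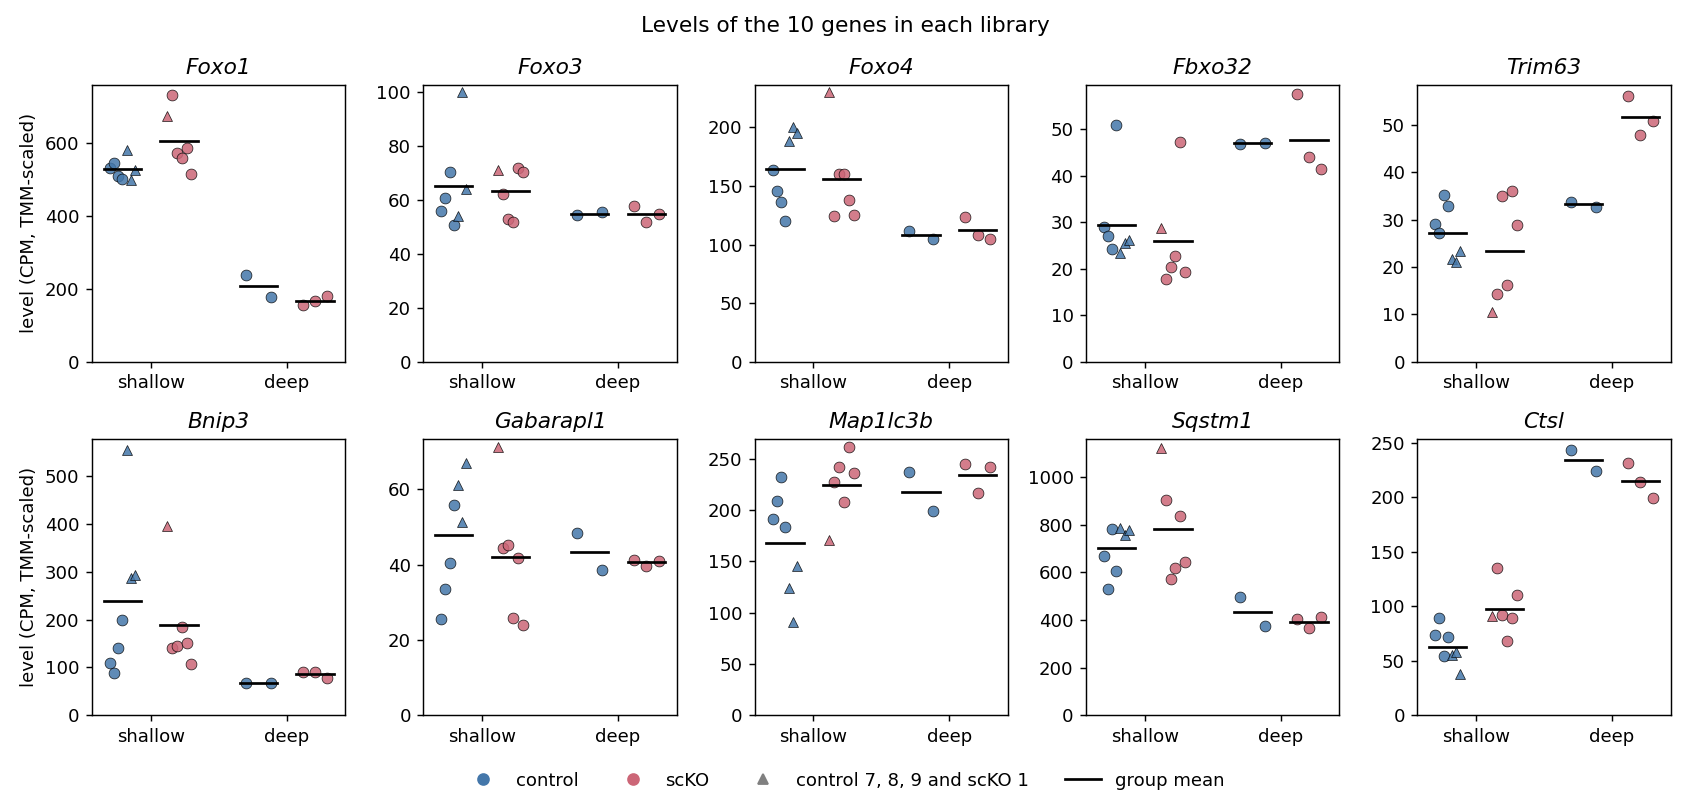
Level of each gene (CPM, TMM-scaled, linear axes from 0) in every library, by depth class; blue points are controls, red points scKO, triangles the 4 shallow libraries that stood apart, bars group means. Trim63 and Bnip3 in deep libraries are the panels where all scKO points lie above both controls. Foxo1, Sqstm1 and Ctsl are genes whose shallow and deep points do not overlap, and the share of all genes with such separation was not computed.

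Of the FoxO factors, Foxo1 (chr3:52268336-52353221, plus strand, GRCm38) had the most transcript per length, Foxo4 (chrX:101254528-101260873, plus strand) less and Foxo3 (chr10:42181841-42276755, minus strand) the least. Foxo1 is the factor most studied in the control of muscle metabolism and differentiation. In shallow controls Foxo1 ranged from 499.2 to 580.9 CPM with a median of 527.2, and in shallow scKO from 516.3 to 731.1 with a median of 579.8. The groups overlapped, with 3 of 6 scKO libraries above every control and 5 of 6 above the control mean. The fitted log2 fold change was 0.19 ± 0.13 (SE; adjusted p = 0.824, edgeR). An exact permutation test, two-sided, gave p = 0.0256, not adjusted. It was run for each of the 10 genes, and 3 were under 0.05 in shallow libraries (Foxo1, Map1lc3b and Ctsl). Adjusted over the 10 genes by Benjamini-Hochberg, these permutation p-values were 0.128, 0.132 and 0.128, above the threshold. The share of all genes under 0.05 by this test was not computed.

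In deep libraries the fitted Foxo1 change had the opposite sign. Its level was 237.1 and 177.8 CPM in controls against 155.9, 166.7 and 180.7 in scKO, so that scKO 9 fell between the controls. The log2 fold change was -0.32 ± 0.12 (SE; adjusted p by edgeR = 0.0977). It was -0.51 (adjusted p = 0.00452) without control 2 and -0.11 without control 1. The difference of the Foxo1 change between depth classes was -0.50 ± 0.22 (SE; adjusted p by edgeR = 0.769).

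Foxo3 and Foxo4 showed no change past the threshold in either class. Foxo3 ranged from 50.9 to 100.3 CPM in shallow controls (median 60.6) and from 51.9 to 71.9 in shallow scKO (median 66.4). It was 54.4 and 55.5 CPM in deep controls and 57.7, 51.9 and 54.9 in deep scKO. The fitted log2 fold changes were -0.04 ± 0.18 in shallow and -0.02 ± 0.10 in deep libraries (SE). Foxo4 ranged from 119.8 to 200.6 CPM in shallow controls (median 164.1) and from 124.5 to 230.1 in shallow scKO (median 149.1). In deep libraries it was 111.5 and 104.8 CPM in controls and 123.6, 108.5 and 104.9 in scKO. Its log2 fold changes were -0.08 ± 0.18 and 0.04 ± 0.10 (SE), with edgeR adjusted p of 0.942 and 0.819.

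The muscle ligases Fbxo32 (chr15:58175879-58214932, minus strand) and Trim63 (chr4:134315120-134329629, plus strand) were low in these cells, and in deep libraries only the latter was called. Fbxo32 encodes the substrate-binding F-box subunit of an SCF ligase. It held 9 to 31 counts in shallow controls (23.4 to 50.9 CPM, median 26.2) and 10 to 25 counts in shallow scKO (17.8 to 47.3 CPM, median 21.5). Control 6 and scKO 5 were the high libraries of their groups. In deep libraries Fbxo32 was 46.9 and 47.1 CPM in controls and 57.6, 44.2 and 41.5 in scKO, so the scKO libraries lay on both sides of the controls. Its fitted change on the log2 scale was -0.22 ± 0.26 in shallow and 0.01 ± 0.13 in deep libraries (SE; adjusted p by edgeR = 0.890 and 0.979).

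Trim63 encodes a RING ligase of the sarcomere that ubiquitinates thick-filament proteins. It held 192 and 279 counts in deep controls (33.7 and 32.7 CPM) and 420, 389 and 368 counts in deep scKO (56.1, 47.9 and 50.8 CPM). All 3 scKO libraries lay above both controls, as did those of 24.5% of all genes in deep libraries, where 48% did not overlap in either direction. The log2 fold change was 0.62 ± 0.11 (SE; adjusted p = 0.00331, edgeR), a 1.54-fold higher level, and 3.05% of tested genes had a smaller p. The call was made in each of the 5 models that left out 1 deep library (0.56 to 0.67, adjusted p from 0.00975 to 0.0161) and under all 6 other settings. The exact permutation test of 2 against 3 libraries gave p = 0.2, the smallest it allows.

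In shallow libraries Trim63 did not move that way. It held 8 to 26 counts in controls (21.0 to 35.2 CPM, median 27.1) and 7 to 31 counts in scKO (10.6 to 36.0 CPM, median 22.5). The groups overlapped, with scKO 1, 2 and 4 below every control, and the log2 fold change was -0.23 ± 0.27 (SE; adjusted p by edgeR = 0.890). The difference between depth classes, 0.86 ± 0.35 (SE), did not pass (edgeR adjusted p = 0.701; DESeq2 0.129), and the model of all libraries gave 0.19 ± 0.20 (adjusted p = 0.768). Over all genes edgeR called 0% of 7662 for such a difference, and at an unadjusted p under 0.05 it was 6.17%; of the 10 genes 3 were under 0.05 (Trim63, Ctsl and Foxo1) and 0 were called by edgeR or DESeq2.

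The differentiated-muscle marker Ckm, creatine kinase, was also higher in deep scKO (log2 fold change 0.77, edgeR adjusted p = 0.000743), the 1 of 5 markers of that list called. The summed level of the list was 1783 to 2433 CPM in deep controls and 2097 to 2280 in deep scKO, and 0 of its 5 genes were at 0 in any library. Acta1, Myh3, Mymk and Tnnt1 of this list had highest counts of 4080, 4030, 3576 and 3549, against 1866 for Ckm. The UMI ceiling thus compresses this sum and the deep changes of those genes. The lack of further calls therefore cannot show that the list was unchanged. Among the markers of other cells, Sox10 of Schwann cells was higher in deep scKO (1.96, adjusted p = 0.00389), on 41 to 45 counts in controls and 129 to 252 in scKO, while its shallow change was -1.35 (adjusted p = 0.800). Myh11, 1 of 3 for smooth muscle, was higher as well (1.61, adjusted p = 0.0166), on 6 to 10 counts in controls and 20 to 34 in scKO. It passed the count filter only through the scKO libraries, so no conclusion is drawn from this call. The smooth muscle list was at 180.4 to 221.0 CPM in deep controls and 191.7 to 212.5 in deep scKO. The fibro-adipogenic list summed to 35.7 to 40.4 CPM in deep controls and 40.1 to 47.8 in deep scKO, the endothelial list to 5.05 to 14.1 and 6.28 to 10.02, and the leukocyte list to 1.58 to 2.11 and 1.52 to 2.34. The satellite cell list summed to 1827 to 2258 and 1860 to 2061 CPM, and its Myf5 was lower (-0.33, adjusted p = 0.0350). Its Myod1, Des and Itga7 had highest counts of 4027, 3596 and 3315, so this sum is compressed as well. The part of these marker genes in the Trim63 and Bnip3 results was not tested. In bulk RNA fewer cells of a type and less RNA per cell cannot be told apart.

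The bases upstream of the start sites of Trim63 and Bnip3 are shown because these are the genes called in deep libraries (RefSeq, GRCm38.p6). Windows of 8 of the 10 genes matched the RefSeq promoter table. Each window reached from upstream of the start site to shortly after it, and both strands were searched. The FoxO core was taken as GTAAACA. The E-box was taken as CACGTG. The core of the hypoxia response element, which lies within that E-box, was taken as ACGTG. The antioxidant response element was taken as TGACNNNGC. Capitals mark matches. Trim63 lies at chr4:134314870-134315119 (plus strand) and Bnip3 at chr7:138909507-138909756 (minus strand).
Trim63: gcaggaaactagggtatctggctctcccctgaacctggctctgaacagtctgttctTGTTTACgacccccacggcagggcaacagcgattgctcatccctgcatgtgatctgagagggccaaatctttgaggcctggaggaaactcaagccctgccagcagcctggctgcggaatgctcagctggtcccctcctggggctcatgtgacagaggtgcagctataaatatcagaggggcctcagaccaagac
Bnip3: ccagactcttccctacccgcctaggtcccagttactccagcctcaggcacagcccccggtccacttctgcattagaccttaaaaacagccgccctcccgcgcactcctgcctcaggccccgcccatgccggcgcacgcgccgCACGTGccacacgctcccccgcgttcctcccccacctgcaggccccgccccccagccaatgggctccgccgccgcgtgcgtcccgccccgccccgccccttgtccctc
Trim63 held the FoxO core on the opposite strand, its first base at position -194 from the start site, and was the 1 gene of 8 that did; 3.65% of 32851 windows of this length hold it. Bnip3 held CACGTG at -108, as did Ctsl at -236 (7.15% of windows), and the match to ACGTG in both is that same site (19.6% of windows). Map1lc3b held TGACNNNGC at 4 (12.4% of windows). A match here is a description of letters and not of binding.

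Bnip3 (chr7:138890836-138909519, minus strand) encodes a receptor on the outer mitochondrial membrane that recruits Atg8-family proteins and is a known target of both FoxO3 and the hypoxia factor HIF1. It was 68.5 and 66.8 CPM in deep controls and 90.2, 90.7 and 78.4 in deep scKO. All 3 scKO libraries lay above both controls. Its log2 fold change was 0.34 ± 0.10 (SE; adjusted p = 0.0377, edgeR), a 1.27-fold higher level. The call was lost without control 1 (adjusted p = 0.0983), control 2 (0.115), scKO 6 (0.0801) or scKO 7 (0.149), and with DESeq2 (0.0957), at a size of 0.30 to 0.40 in the 5 models that left out a library.

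In shallow libraries Bnip3 varied more than any other of the 10 genes. Its coefficient of variation was 67.3% in controls and 56.1% in scKO. It ranged from 87.7 to 553.9 CPM in controls (median 200.2) and from 107.4 to 396.5 in scKO (median 148.4). The high values were those of control 7, 8 and 9 and scKO 1. With them the log2 fold change was -0.35 ± 0.41 (SE; adjusted p by edgeR = 0.890), and without these 4 libraries it was 0.12. Without control 7 alone it was 0.03. Bnip3 has 4 pseudogenes that match its transcript over 544 to 567 bases at 93.4% to 98.9% identity. Of these Gm9419 held 3 counts in all, Gm16439 and Gm14506 held 0, and Gm6532 was not counted. The exons of Bnip3 share 504 bases with the antisense gene Gm45507 (228 counts in all), so its count is uncertain to that extent.

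**Figure D2:**
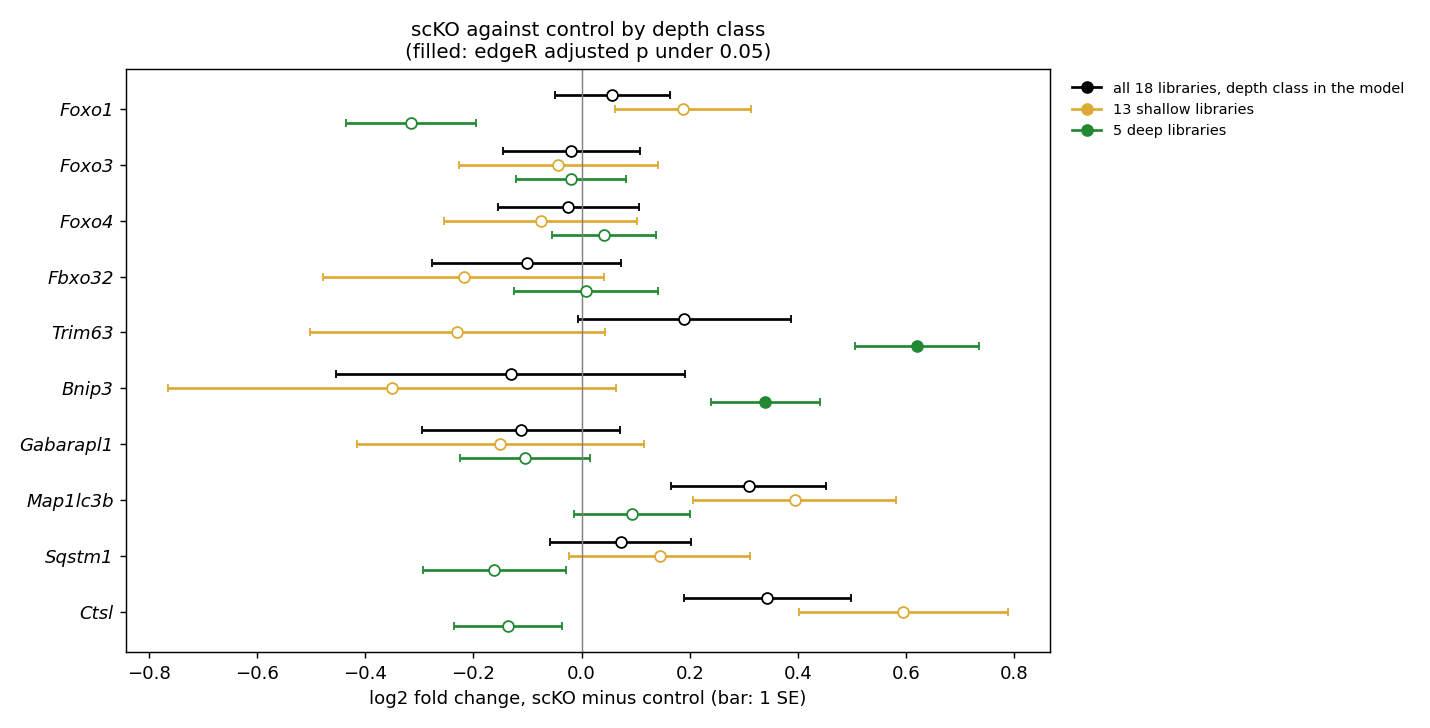
Fitted log2 fold change of scKO against control (points) with 1 SE (bars) for each gene over all 18 libraries with the depth class in the model (black), in 13 shallow libraries (yellow) and in 5 deep libraries (green); filled points have an edgeR adjusted p under 0.05. The filled points are Trim63 at 0.62 and Bnip3 at 0.34 in deep libraries, and Ctsl reaches 0.60 in shallow libraries without passing.

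Gabarapl1 and Map1lc3b encode Atg8-family proteins, which are attached to lipid on the growing autophagosome and bind cargo receptors. Gabarapl1 (chr6:129533160-129542346, plus strand) ranged from 25.6 to 67.0 CPM in shallow controls (median 51.3) and from 24.1 to 71.1 in shallow scKO (median 43.1). It was 48.5 and 38.5 CPM in deep controls against 41.2, 39.6 and 41.0 in deep scKO, all within the controls' range. Its log2 fold changes were -0.15 ± 0.27 and -0.10 ± 0.12 (SE; adjusted p by edgeR = 0.926 and 0.616).

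Map1lc3b (chr8:121590361-121598760, plus strand), the gene of LC3B, whose lipid-bound form is the usual marker of autophagosomes, had an unadjusted p under 0.05 in shallow libraries. It ranged from 91.0 to 232.6 CPM in controls (median 183.8) and from 171.0 to 261.2 in scKO (median 231.7). All 6 scKO libraries lay above the control mean and 3 above every control, yet the groups overlapped. The fitted change was 0.39 ± 0.19 on the log2 scale (SE; adjusted p = 0.810, edgeR). An exact permutation test, two-sided, gave p = 0.0396 (0.132 adjusted over the 10 genes). Leaving out the 4 libraries that stood apart, 3 of them controls with low Map1lc3b, brought the change to 0.20 in shallow libraries, and from 0.31 to 0.16 in the model of all libraries. In deep libraries it was 237.5 and 198.7 CPM in controls and 245.1, 216.8 and 241.8 in scKO, with a log2 fold change of 0.09 ± 0.11 (SE; adjusted p = 0.620). Its exons share 58 bases with Zcchc14 on the opposite strand (892 counts in all), as Gabarapl1 shares 570 with 1700101I11Rik (232 counts), and whether counting used strand is not known here.

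Sqstm1 (chr11:50199366-50210827, minus strand) encodes p62, a receptor that ties ubiquitinated cargo to LC3 and is itself degraded by autophagy and induced by Nrf2. Its level ranged from 529.1 to 784.1 CPM in shallow controls (median 755.8) and from 573.8 to 1123 in shallow scKO (median 739.0). In deep libraries it was 496.0 and 374.5 CPM in controls and 402.2, 364.6 and 410.5 in scKO. On the log2 scale the changes were 0.14 ± 0.17 and -0.16 ± 0.13 (SE; adjusted p by edgeR = 0.886 and 0.463). Deep counts of 2824 to 3191 were 68.9% to 77.9% of the UMI ceiling, which compresses differences between deep libraries; with counts corrected for UMI collisions the deep change was -0.18. Without control 2 the deep change was -0.35 (adjusted p = 0.0209), and without control 1 it was 0.04. Exons of Sqstm1 share 580 bases with Mrnip on the opposite strand (242 counts in all).

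Ctsl (chr13:64359337-64370890, minus strand) encodes cathepsin L, a lysosomal cysteine protease and one of the genes commonly raised in wasting muscle. In shallow libraries it ranged from 37.9 to 89.0 CPM in controls (median 58.3) and from 68.1 to 135.2 in scKO (median 91.6). All 6 scKO libraries lay above the control mean and 4 above every control. The log2 fold change was 0.60 ± 0.19 (SE, edgeR), and 0.767% of tested genes had a smaller p, yet the adjusted p was 0.699. An exact permutation test, two-sided, gave p = 0.0128 (0.128 adjusted over the 10 genes). Without the 4 libraries that stood apart the change was 0.44. The pseudogene Gm49230, on the same strand, matches the Ctsl transcript over 395 bases at 100% identity and was not counted.

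In deep libraries Ctsl was 243.6 and 224.5 CPM in controls and 231.0, 214.5 and 199.2 in scKO, all 3 below the control mean. Its fitted change was -0.14 ± 0.10 (SE; adjusted p by edgeR = 0.402), and the difference between depth classes was -0.72 ± 0.30 (SE; adjusted p = 0.717). Between the classes, Ctsl was 3.72 times higher in deep than in shallow controls by TMM-scaled CPM. Foxo1 went the other way at 0.393 times, and Bnip3 at 0.283 times. With counts corrected for UMI collisions and scaled to library totals without TMM, these ratios were 6.14, 0.604 and 0.392. The scaling thus differs as well as the correction. Hoxa10, at most 8.01% of the ceiling, also moved from 1.10 to 1.51, so the shifts cannot be credited to collisions. Depth class was not a treatment of the study, and what else differed between these libraries is not stated.

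The 4 shallow libraries that stood apart differed from the other 9 in several of the 10 genes at once. Bnip3 was 286.9 to 553.9 CPM in them and 87.7 to 200.2 in the others, 2.72 times higher by means. Foxo4 was 188.8 to 230.1 against 119.8 to 164.1 CPM, and Map1lc3b was 91.0 to 171.0 against 183.8 to 261.2 CPM. These 3 genes did not overlap between the sets, and neither did 17% of all genes (9.78% higher and 7.22% lower in the 4), so such separation was common in these libraries. Gabarapl1 was 51.3 to 71.1 against 24.1 to 55.8 CPM and overlapped. The 4 libraries hold 3 controls and 1 scKO. In Bnip3, Foxo4 and Map1lc3b scKO 1 lay on the same side of the other 9 as the 3 controls, though it was the highest of the 4 in Foxo4, Map1lc3b and Gabarapl1.

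Among hypoxia targets, Pgk1, a glycolytic kinase, and Ndrg1 were higher in the 4 libraries (367.0 to 422.6 against 147.7 to 227.2 CPM, and 20.4 to 36.0 against 6.49 to 19.8). Vegfa was 12.6 to 35.0 against 28.4 to 78.3 CPM, and Ldha was 128.2 to 149.3 against 147.6 to 275.9, both lower in their means and overlapping. The ranges of Pgk1 and Ndrg1 did not overlap between the sets, as was so for 17% of all genes. By means, Bnip3l (1.37 times) and Pdk1 (1.34 times) were also higher in the 4 libraries, and Ero1l (0.472 times) and Egln3 (0.672 times) lower. Genes of the list thus differed in both directions, and a part of hypoxia was not tested.

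**Figure D3:**
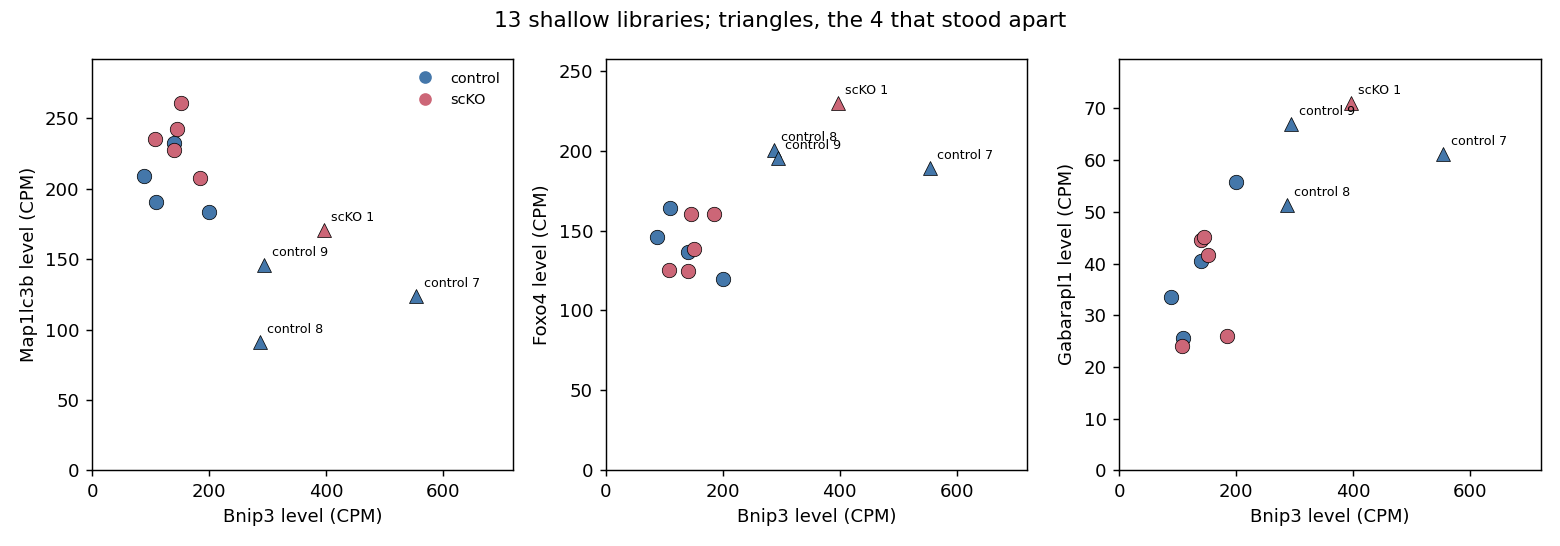
Levels (CPM, linear axes from 0) of Map1lc3b, Foxo4 and Gabarapl1 against Bnip3 in the 13 shallow libraries; blue marks controls, red scKO, and triangles are the 4 libraries that stood apart, named beside the points. The triangles lie at 286.9 CPM of Bnip3 or more, with Map1lc3b at 171.0 CPM or less and Foxo4 at 188.8 CPM or more. In Bnip3 scKO 1 lies within the range of controls 7, 8 and 9, and in Map1lc3b, Foxo4 and Gabarapl1 it is the highest of the 4.

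Over all 18 libraries, with the mean of each depth class and group removed from log2 CPM, Bnip3 varied with Gabarapl1 (Pearson r = 0.76) and Foxo4 (0.70) and against Map1lc3b (-0.75). Without the 4 libraries that stood apart (n = 14) these values were 0.52, -0.12 and -0.28, so those with Foxo4 and Map1lc3b rest on the 4. Trim63 and Map1lc3b gave 0.63 (0.54 without the 4), and Foxo1 and Sqstm1 0.61 (0.58). Fbxo32 and Trim63, often measured together as a pair of atrophy markers, gave 0.30 (0.43). These libraries share depth and the UMI ceiling, so the values are descriptions. By the same measure over 7425 genes and 18 libraries, the genes most like Foxo1 were Elp2 (0.75; 0.77 without the 4), Rasa4 (0.73; 0.82) and Chchd6 (0.73; 0.74). Those most like Foxo3 were Tmeff1 (0.90; 0.84), Vapa (0.84; 0.81) and Tm4sf1 (0.82; 0.42). Those most like Fbxo32 were Dusp16 (0.73; 0.79), Pkd1 (0.73; 0.75) and Atxn7l3b (0.73; 0.81).

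The pathways around the 10 genes were read from fixed lists. In deep libraries, of 17 tested FoxO targets outside autophagy 6 were higher and 0 lower, with a median log2 fold change of 0.25, where 7.31% of all genes were called higher and 7.03% lower. The 6 were Gadd45a, a growth arrest and DNA damage gene (0.59, edgeR adjusted p = 0.000913), Bcl6, a transcriptional repressor (0.58), Ccng2, an inhibitory cyclin (0.52), Sesn3, a sestrin (0.47), Bcl2l11, the death factor Bim (0.42), and Txnip, the thioredoxin-interacting protein (1.46, on 15 to 42 counts in controls and 52 to 103 in scKO). The count was 2 without control 1 and 3 without scKO 7. Of 18 genes of insulin and Akt signalling, Pdpk1, the kinase that activates Akt, was higher (0.41) and Ywhaz, a 14-3-3 protein that binds phosphorylated FoxO, was lower (-0.29), with a median of 0.01. That is 1 of 18 in each direction, near the shares of all genes called higher and lower.

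In deep libraries 7.31% of all tested genes were called higher and 7.03% lower. Of 19 tested atrophy ligases and partners outside the 10 genes, 4 were higher in deep scKO and 0 lower, with a median of -0.01. They were Fbxo40, which targets IRS1 (1.49, 24 to 39 counts in controls and 87 to 105 in scKO), Asb2 (1.05), and the MuRF relatives of Trim63, Trim55 (0.51) and Trim54 (0.33). The count was 2 without control 2, scKO 6 or scKO 7, and 2 with DESeq2. In the proteasome 0 of 31 subunits were called by edgeR, and the median was -0.02. An unadjusted edgeR p under 0.05 was found for 2 of the 31, against 29.4% of all genes.

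The shares of all genes called were again 7.31% higher and 7.03% lower. Of 42 tested genes of the autophagy machinery 7 were higher and 0 lower in deep scKO, with a median of 0.14. They were the mitophagy kinase Pink1 (0.95, 103 to 149 counts in controls and 251 to 279 in scKO), the LC3 processing proteases Atg4a (0.72) and Atg4c (0.61), Calcoco1 (0.68), the LC3 paralogue Map1lc3a (0.56), Atg12 of the conjugation system (0.44) and the receptor Nbr1 (0.36). Leaving out scKO 9 made the count 4. In the lysosome list 2 of 28 were higher and 0 lower with a median of 0.01, a share near the 7.31% of all genes called higher: Tfeb and Mitf, related transcription factors of lysosomal genes (1.27 and 0.65), the first on 10 to 11 counts in controls and 24 to 32 in scKO. Genes called in deep libraries were named after their values were seen.

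Of 10 Nrf2 targets 6 were lower and 0 higher in deep scKO, with a median of -0.52, where 7.03% of all genes were called lower. In shallow libraries their median was 0.09 with 5 of 8 above 0, and with the depth class -0.14 with 2 of 9 above 0, with 0 called by edgeR in both. They were Nqo1 (-0.63), G6pdx (-0.63), Hmox1 (-0.59), Gclm (-0.56), Txnrd1 (-0.42) and Srxn1 (-0.41), enzymes of redox defence and NADPH supply. Of 12 tested hypoxia targets Pdk1 was higher (0.57) and Egln3 lower (-0.68), with a median of -0.01. That is 1 of 12 in each direction, near the 7.31% of all genes called higher and 7.03% called lower.

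**Figure D4:**
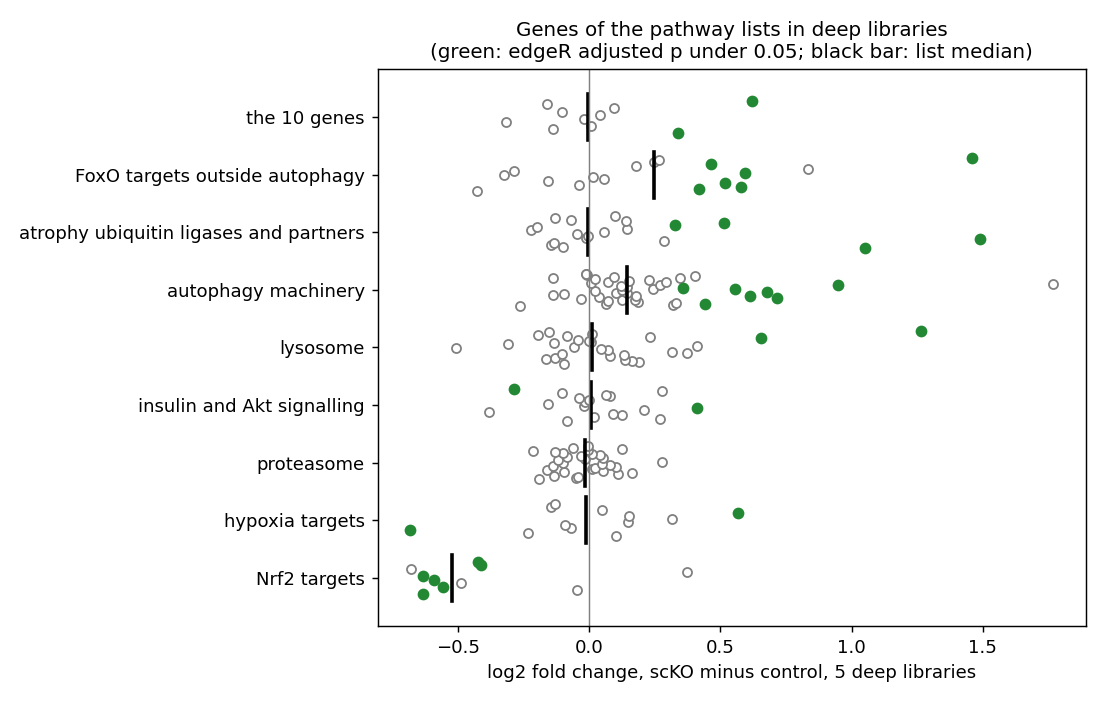
Log2 fold change of scKO against control in the 5 deep libraries for each tested gene of the lists (points; green where the edgeR adjusted p is under 0.05) and the list median (black bar). The medians are 0.25 for FoxO targets outside autophagy, 0.14 for the autophagy machinery and -0.52 for Nrf2 targets, and lie within 0.02 of 0 for the other lists.

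In shallow libraries and in the model of all 18 libraries 0 genes of these lists were called by edgeR in either direction. In the latter the medians were 0.15 for FoxO targets (10 of 12 above 0; 3 with an unadjusted p under 0.05), 0.11 for the autophagy machinery (25 of 33; 5) and 0.11 for the lysosome (18 of 23; 3), beside -0.01 for all genes, of which 11.9% had an unadjusted p under 0.05. The smallest p in each was that of Sod2, mitochondrial superoxide dismutase (0.23, adjusted p = 0.324), Atg12 (0.43, 0.204) and Mitf (0.70, 0.0602). Among ligases it was Mdm2, the ligase of p53 (0.48, adjusted p = 0.0690), followed by Fbxo40 (0.92, 0.182). Mdm2 was 0.66 in shallow and -0.01 in deep libraries, and Fbxo40 0.40 and 1.49. Mitf was 0.72 in shallow and 0.65 in deep libraries, and Atg12 0.40 and 0.44, whereas Gadd45a was -0.09 and 0.59, Map1lc3a -0.36 and 0.56 and Pink1 -0.55 and 0.95. The difference between depth classes did not pass for any of these 7 genes (edgeR adjusted p from 0.570 to 0.998).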

How the data were processed

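The values analysed are UMI counts per gene and library, raw as deposited; HISAT2, HTSeq and the rat build Rnor 6.0 are named in the submitters' processing notes, while the identifiers are mouse Ensembl genes and were used as deposited. Versions, settings, kit and strand are not given in the sources used here. The 313 features without a symbol held 0.041% of counts. After filterByExpr and TMM scaling, scKO was tested against control by edgeR 4.0.16 (quasi-likelihood, robust; R 4.3.3) over all tested genes, with p-values adjusted by Benjamini-Hochberg and called under 0.05, in all libraries with the depth class as covariate, within each class, and for the interaction. The edgeR steps were tested on simulated data. Single genes were compared by exact permutation of log2 CPM (prior count 2; scipy 1.17.1). DESeq2 1.42.0, limma-voom 3.58.1, other filters and left-out libraries were alternatives. Genes named were all 10 members, up to 4 per list by smallest p, and the 3 most alike for Foxo1, Foxo3 and Fbxo32. Members, lists and the depth split were chosen with earlier results of these data known. Positions are from GENCODE M21. The summed level of 1 marker list is not reported here.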

Additional observations from a re-analysis of the deposited data

Results flagged for a closer look

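Fbxo32 was set apart by 1 library: control 6 was the highest of the 7 shallow controls, at 50.9 CPM on 31 counts, and its gap to the next library was 0.721 of the whole range of log2 CPM. The flag marks a gap past a cutoff that chance passes in about 1 of 20 groups, and 20 groups of libraries were examined.

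Ctsl was in every scKO library above the control mean among shallow libraries and below it among deep ones, and the difference of the change between the classes was -0.72 on the log2 scale (edgeR adjusted p = 0.717), so a difference between classes is not shown.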

How the results depend on the processing

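Of 630 values of the 10 genes under the alternatives, 582 kept their direction and side of the threshold, 5 lost the call, 3 gained it and 40 changed sign. The lost calls were those of Bnip3 in deep libraries, and the gained ones those of Foxo1 without control 2 and with no count filter (-0.31, adjusted p = 0.0328) and of Sqstm1 without control 2; the cause was not tested. The count over all genes with the depth class, 52, was 390 with DESeq2, 100 with limma-voom, 359 with no count filter, 22 with a stricter one, 1 with the group alone, 617 without the 4 libraries, 2 with counts thinned to the smallest total and 11 to 216 with 1 library left out (lowest without control 1, highest without scKO 1). In shallow libraries 3 became 6 with DESeq2, 13 with no filter, 0 without the 4 libraries and 1 to 5 with 1 left out; in deep ones 1884 became 996 to 1810 with 1 left out, lowest without scKO 7. The count for a difference between classes, 0, was 60 with DESeq2. The ligases called in deep libraries, 4, were 2 with DESeq2 and 2 to 3 with 1 library left out; FoxO targets were 2 to 5, autophagy genes 4 to 8 and Nrf2 targets 4 to 7.

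Signs changed as follows. Bnip3 with the depth class (-0.13) was 0.0027 with limma-voom and 0.23 without the 4 libraries, and in shallow libraries (-0.35) 0.12 without them. Fbxo32 was -0.0061 in deep libraries with limma-voom, and with the depth class 0.011 with the group alone and 0.038 when thinned. Without the 4 libraries Foxo1, Foxo3 and Foxo4 with the depth class were -0.0037, 0.015 and 0.022, Foxo3 in shallow libraries 0.041, and the differences between classes of Foxo3 and Gabarapl1 -0.043 and -0.037; the former was -0.0029 with DESeq2. With 1 library left out, values crossed 0 for Bnip3 (shallow -0.69 to 0.032; depth class -0.36 to 0.14), Fbxo32 (deep -0.14 to 0.10), Foxo3 (deep -0.052 to 0.020; shallow -0.084 to 0.086; depth class -0.051 to 0.055), Foxo4 (deep -0.027 to 0.085; depth class -0.12 to 0.017), Gabarapl1 (deep -0.27 to 0.048), Map1lc3b (deep -0.029 to 0.21) and Sqstm1 (deep -0.35 to 0.039; depth class -0.028 to 0.14).

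Replicate numbers are shared by the groups. Correlations of same-numbered libraries were -0.066 to 0.25, over 0.1 for 5 of 9 numbers, and 2 of 9 were best with their own number. Only numbers 3, 4 and 5 have both libraries shallow and outside the 4 that stood apart. They gave the highest values (0.19, 0.18 and 0.25), and 3 and 5 were best with their own number. Whether the numbers pair the libraries is thus not settled. With the replicate block the count with the depth class was 14, that in shallow libraries 3, and the values that changed sign were Trim63 -0.11 (from 0.19) and Bnip3 0.0021 with the depth class, and Trim63 0.019, Bnip3 0.050 and Sqstm1 -0.038 in shallow libraries. Precision is limited by low counts of Fbxo32, Trim63 and Gabarapl1 in shallow libraries and by the UMI ceiling for Sqstm1 and abundant marker genes in deep ones. The pathway list counts, the interaction without the 4 libraries or with collision-corrected counts, and the correlations without the 4 libraries were added after seeing the data.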
